A study of Equus caballus with 19 samples.

Results

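The glycosaminoglycan enzymes described here are the genes for the enzymes that build, epimerise, sulfate and trim the sugar chains of proteoglycans. They were chosen by gene name alone, from the CHST, CHSY, CHPF, CSGALNACT, XYLT, HS2ST, HS3ST, HS6ST, NDST, EXTL and B3GAT families together with EXT1, EXT2, UST, UGDH, DSE, DSEL, GLCE, B4GALT7, B3GALT6, SULF1 and SULF2, and 52 of the 29196 gene names measured met this rule. RNA was sequenced from wild-type equine tenocytes, the collagen-producing cells of tendon, grown from the superficial digital flexor tendon of adult horses. The cells were held for 14 days in three-dimensional gels of bovine type I collagen without stimulation (control), with 1 nM of the inflammatory cytokine interleukin 1 beta (IL-1β), or with 1 nM IL-1β and 100 ng/ml of the interleukin 1 receptor antagonist IL1Ra (IL-1β + IL1Ra). The first batch has a control and an IL-1β library for each of 5 independent lines (lines 1 to 5), and the second batch has a library of all the conditions for each of 3 further lines (lines 6 to 8), which makes 19 libraries. Cells of all groups were passaged in medium with serum and were kept in such medium in the gels, and no library received IL1Ra without IL-1β.

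Glycosaminoglycans are long, negatively charged sugar chains that are joined to proteoglycan core proteins through a short linker of sugars begun by xylose. On the linker, either alternating N-acetylgalactosamine and glucuronic acid are added, which gives chondroitin sulfate, or alternating N-acetylglucosamine and glucuronic acid, which gives heparan sulfate. Chondroitin becomes dermatan sulfate when some of its glucuronic acid is epimerised to iduronic acid, and this is the chain carried by decorin and biglycan along the collagen fibrils of tendon. Sulfotransferases then place sulfate at set positions of the sugars, and the pattern of sulfate helps to decide which growth factors, cytokines and matrix proteins a chain can bind.

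The values are normalised counts, which the authors obtained with DESeq2. The paper does not say whether the normalising factors differed only between libraries or also between genes. The counts are not divided by gene length, so levels are compared between conditions and not between genes. In the first batch, 40 of the 52 enzyme genes reached 10 or more normalised counts in 5 or more libraries and were tested, 8 lay below this limit and 4 were listed at 0 in every library. In the second batch, where 3 libraries were required, 41 were tested, 10 lay below and 1 was listed at 0. Genes that passed only because 1 condition was high had to differ, so no share of the tested genes is read as a property of all 52. CHST7 and EXTL1 in the first batch and EXTL1 in the second had just the required number of libraries at 10 or more, and CHST7 and NDST4 in the second missed it by 1 library. Library sums ran from 43393903 to 49197980 normalised counts for lines 1 to 5 and from 24964149 to 34602014 for lines 6 to 8, and the 52 genes together took 0.245% to 0.338% and 0.231% to 0.321% of them.

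The first comparison asked which of these genes differed between IL-1β and control in lines 1 to 5. HS3ST1, CSGALNACT1 and CHST3 were downregulated and CHST2 was upregulated, and these 4 genes were the DE ones among the 40 tested, by limma with a Benjamini-Hochberg adjusted p under 0.05 and a log2-fold change of 1 or more in either direction. Smaller changes passed the adjusted p in 7 more genes, with B3GALT6, DSE, EXT1 and EXTL2 higher and CHST10, CHST14 and EXT2 lower. The chondroitin 6-O-sulfotransferase gene CHST3 and the heparan 3-O-sulfotransferase gene HS3ST1 were lower in every line, and the dermatan epimerase gene DSE was higher in every line.

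DE genes made up 12.8% of the 14719 tested in this batch, and 4 of the 40 enzyme genes. Upregulated were 1 of 40 against 4.91% of all genes, and downregulated 3 of 40 against 7.9%. At an adjusted p under 0.05 without a fold-change limit the count was 11 of 40, 5 higher and 6 lower, against 27.7% of all genes (13.1% higher and 14.6% lower). Each of these shares lies near or below that of all genes, so they show nothing particular to the enzymes. The median log2-fold change was −0.083 over the 40 genes and −0.0034 over all genes, and the median absolute log2-fold change was 0.39 against 0.34. Means were higher with IL-1β for 18 of 40 genes, against 49.7% of all genes. The direction was the same in all lines for 14 of 40 genes, against 49.8%, and the groups did not overlap for CHST2 and DSE on the higher side (2 of 40, against 9.34%) and for CHST3, CHST14, EXT2 and HS3ST1 on the lower side (4 of 40, against 10.2%). In bulk RNA, fewer cells of a kind and less RNA per cell cannot be told apart in any of these differences. Fold changes refer to log2(normalised count + 1), where the added 1 makes changes at low counts look smaller than they are.

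**Figure D1:**
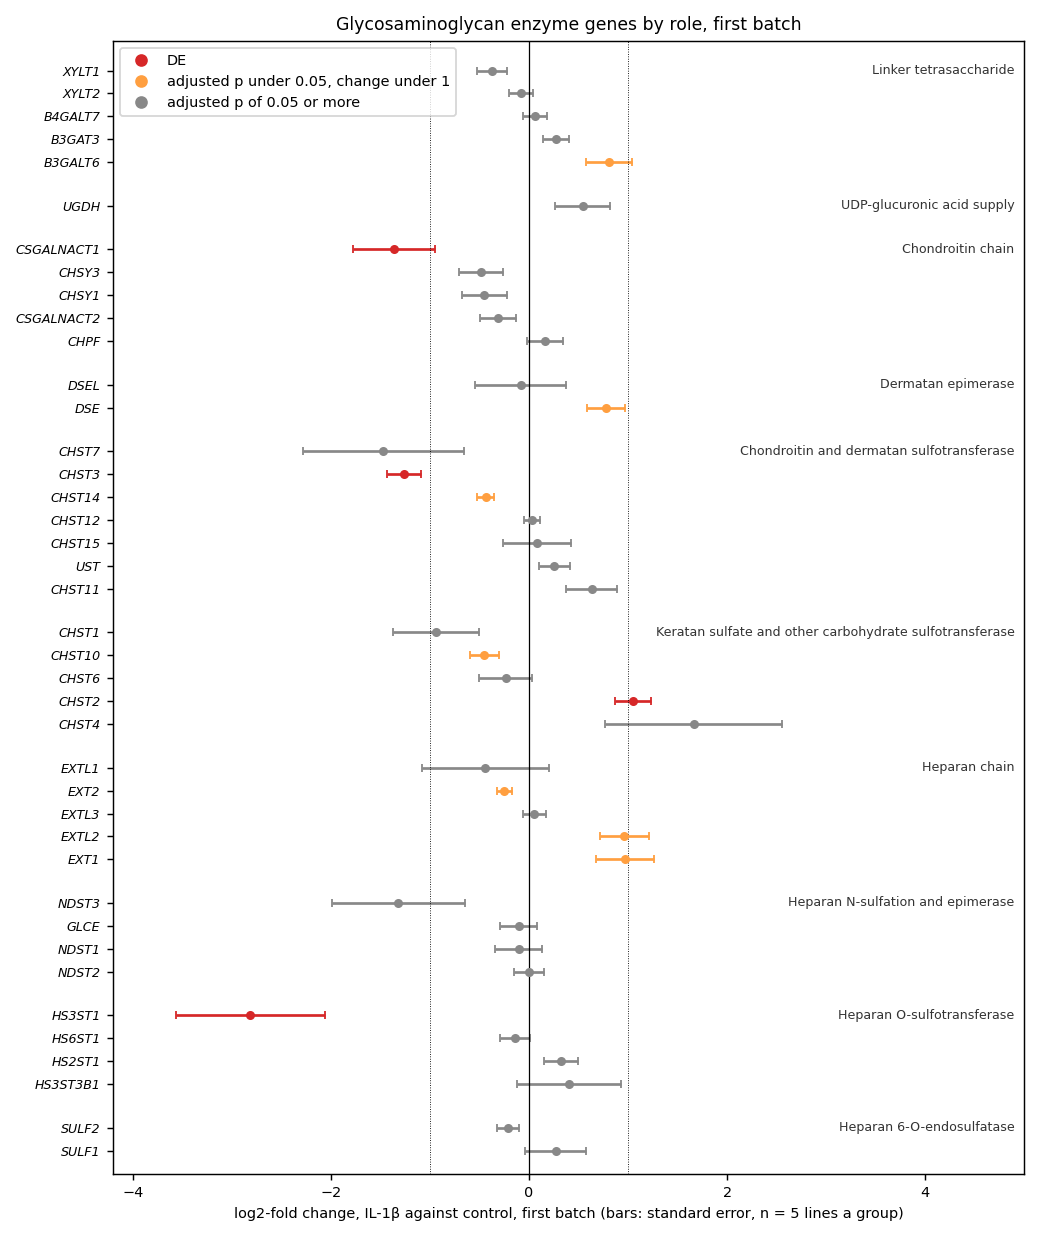
Log2-fold change between IL-1β and control in the first batch (horizontal axis, bars give the standard error, n = 5 lines a group) for the 40 enzyme genes tested, grouped by role (labels on the right). Dotted lines stand at −1 and 1. HS3ST1 lies farthest from 0 at −2.81, and most roles hold genes on both sides of 0.

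Of the 5 genes that build the linker, B3GALT6 was higher with IL-1β and the other 4 did not pass the adjusted p. B3GALT6 encodes the galactosyltransferase that adds the linker's second galactose. Its normalised counts in the control libraries of lines 1 to 5 were 659, 719, 326, 454 and 449, and with IL-1β they were 1214, 868, 949, 725 and 718. Every line had the higher value with IL-1β although the groups overlapped, because line 2 was already high in control, and the log2-fold change was 0.81 ± 0.23 (SE) with an adjusted p of 0.0254. XYLT1, one of the paired xylosyltransferases that start the linker, had control counts of 4110.3, 4929, 3872, 4805 and 5139 and IL-1β counts of 4371, 3359.6, 2418, 3959 and 3755. It was lower in 4 of 5 lines, the exception being line 1, with a log2-fold change of −0.37 ± 0.16 (SE) and an adjusted p of 0.0975. With the tenocyte line as a block the adjusted p of XYLT1 was 0.0368. B3GAT3, which adds the glucuronic acid that completes the linker, had a log2-fold change of 0.27 and an adjusted p of 0.155, and 0.0194 with the block. XYLT2, the other xylosyltransferase gene, and B4GALT7, which adds the first galactose, had log2-fold changes of −0.081 and 0.058. UGDH, the dehydrogenase that makes the UDP-glucuronic acid used for all these chains except keratan sulfate, had control counts of 9627, 10977, 3920.2, 5569.6 and 5635 and IL-1β counts of 14121, 9004, 9632, 8189.6 and 8428. It was higher in 4 of 5 lines and lower in line 2, with a log2-fold change of 0.54 ± 0.27 (SE) that did not pass (adjusted p = 0.171).

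Of the 5 chondroitin chain genes, CSGALNACT1 was downregulated, and the mean was lower with IL-1β in 3 of the other 4. CSGALNACT1 encodes an N-acetylgalactosaminyltransferase that starts the chondroitin chain on the linker. In the control libraries of lines 1 to 5 it had 60.2, 102, 258, 222 and 170.4 normalised counts, and in the IL-1β libraries 34.5, 70.4, 54.1, 81.8 and 47.5. All lines were lower with IL-1β, while the groups overlapped because the control of line 1 was as low as the IL-1β libraries. The log2-fold change was −1.36 ± 0.41 (SE) with an adjusted p of 0.0327. The call depended on single lines, since the adjusted p was above 0.05 without line 2 (0.0538), line 3 (0.108), line 4 (0.0743) or line 5 (0.134).

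CHPF, a partner of the chondroitin polymerases, had control counts of 8319.5, 11709, 10718, 8127 and 9762 and IL-1β counts of 15174, 12763, 9635, 7901 and 9806. These groups overlapped, and the log2-fold change was 0.16 ± 0.18 (SE) with an adjusted p of 0.545. CHSY1 and CHSY3, the chondroitin synthases that lengthen the chain, had log2-fold changes of −0.45 and −0.49, each lower in all lines but 1, with adjusted p of 0.170 and 0.126. With the block the adjusted p of CHSY1 was 0.0471 and that of CHSY3 0.0572. CSGALNACT2, the second starter enzyme gene, had a log2-fold change of −0.31 and was lower in 4 of 5 lines (adjusted p = 0.222).

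DSE encodes the epimerase that turns glucuronic acid of chondroitin into iduronic acid and so makes dermatan sulfate. Its control counts were 8568, 8091, 8784, 7289 and 7517, and its IL-1β counts 18493, 14142, 18682, 10052 and 10013. Every IL-1β library lay above every control library, with lines 1 and 3 highest, and the log2-fold change was 0.78 ± 0.19 (SE) with an adjusted p of 0.0120. DSEL, the second epimerase gene, did not pass. Its log2-fold change was −0.086 ± 0.46 (SE) (adjusted p = 0.914). Line 3 was lower with IL-1β, line 5 slightly lower at −0.098, and lines 1, 2 and 4 were higher.

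Among the chondroitin and dermatan sulfotransferases, 7 of 8 genes were tested, and CHST3 was DE while CHST14 passed the adjusted p with a smaller change. CHST3 encodes chondroitin 6-O-sulfotransferase 1. In control it had 1965, 2059, 1456, 2510.3 and 3039 normalised counts, and with IL-1β 861, 823, 879, 883 and 1024. The IL-1β libraries were close to each other, and all lay below the lowest control library. The log2-fold change of CHST3 was −1.26 ± 0.17 (SE) with an adjusted p of 6.74e-04, single lines lay between −1.57 and −0.73, and 85.2% of its variation between libraries went with the condition. It was the only enzyme gene that stayed DE under each alternative setting run for the first batch, each left-out line and the block included.

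CHST11, a chondroitin 4-O-sulfotransferase gene, had control counts of 4523, 7872, 2899, 3303 and 3063 and IL-1β counts of 6999, 7546, 5615, 6348 and 4974. The value was higher with IL-1β in 4 lines and about the same in line 2, which was the highest control. Its log2-fold change was 0.63 ± 0.26 (SE) with an adjusted p of 0.0908, and 0.0159 with the block. CHST14, the dermatan 4-O-sulfotransferase gene, had control counts of 1720.4, 1657, 1787, 1657 and 1761. With IL-1β these were 1174, 1250.0, 1147, 1369.8 and 1409.8. No IL-1β library reached the lowest control, and the log2-fold change was −0.44 ± 0.084 (SE) (adjusted p = 0.00370). CHST7, a second 6-O-sulfotransferase gene, had low counts, 31.2, 13.3, 28.0, 4.81 and 11.2 in control and 2.37, 6.32, 38.0, 0.987 and 2.00 with IL-1β. It was lower in 4 of 5 lines and higher in line 3, with a log2-fold change of −1.47 ± 0.81 (SE) (adjusted p = 0.206). CHST12, a 4-O-sulfotransferase gene, CHST15, which adds a second sulfate to chondroitin already sulfated at the 4 position, and UST, which sulfates uronic acid at the 2 position, had log2-fold changes of 0.032, 0.082 and 0.25, with adjusted p of 0.809, 0.887 and 0.253.

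**Figure D2:**
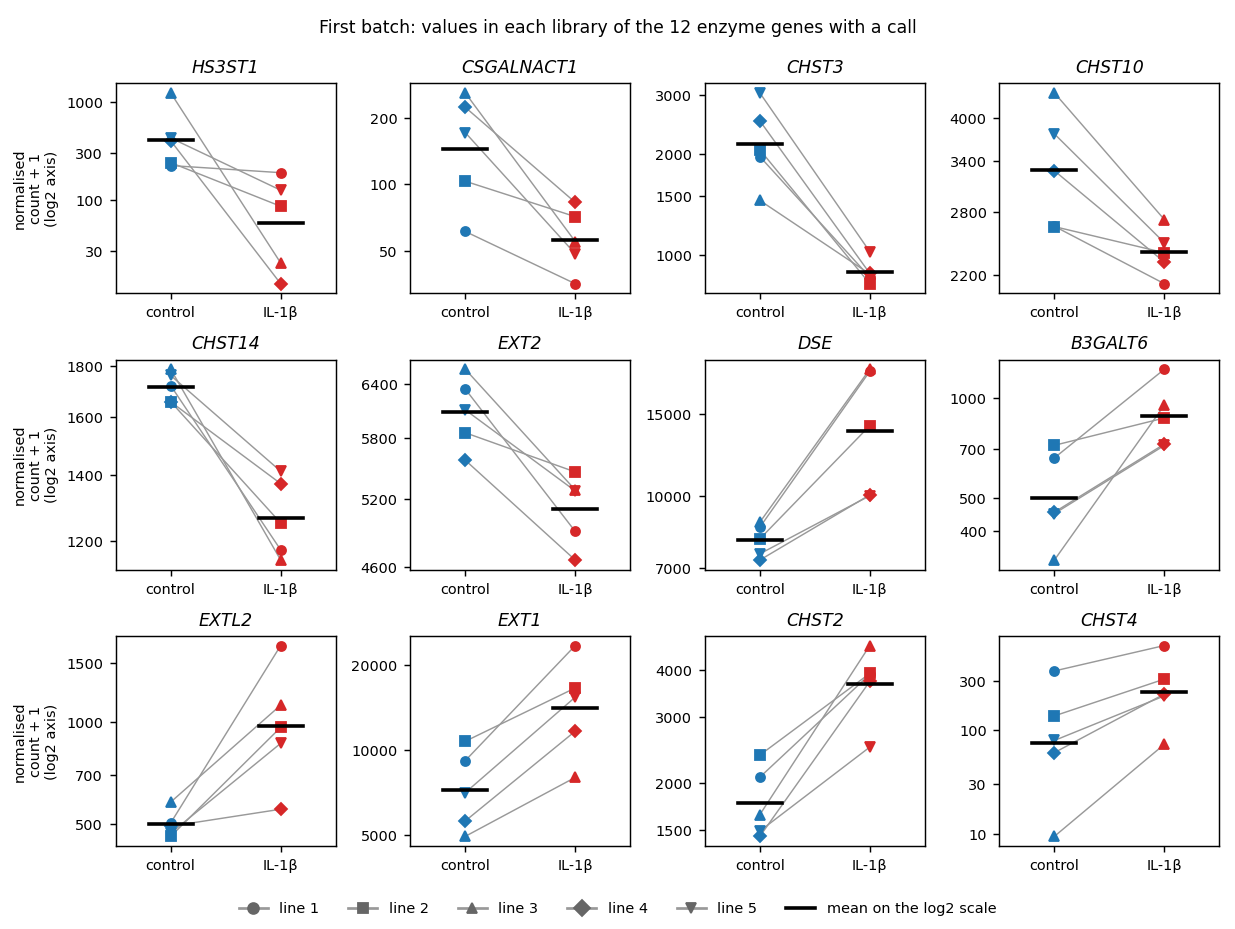
Normalised count + 1 (vertical axes, log2 scale, a range of its own in each panel) in the control and IL-1β libraries of lines 1 to 5 for the 11 enzyme genes with an adjusted p under 0.05 and for CHST4, which was DE with the tenocyte line as a block. Grey lines join the libraries of a line and black bars are means on the log2 scale. All lines moved the same way in each of these panels, while the groups separated fully for HS3ST1, CHST3, CHST14, EXT2, DSE and CHST2.

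In the group that sulfates keratan sulfate and other sugars, 5 of 7 genes were tested, CHST2 was upregulated and CHST10 was lower. CHST2 encodes an N-acetylglucosamine 6-O-sulfotransferase that acts on keratan sulfate and on the glycans that bind L-selectin on leukocytes. Control libraries had 2069, 2369.7, 1644, 1439 and 1487 normalised counts and IL-1β libraries 3889, 3911, 4642, 3725 and 2489.6. Every IL-1β library lay above every control library, with line 5 the nearest to them. The log2-fold change was 1.05 ± 0.19 (SE) with an adjusted p of 0.00259. Without line 3 or line 4 it was 0.94 or 0.97, under the fold-change limit, with adjusted p of 0.0147 and 0.0165.

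CHST4, a relative of CHST2 best known from the endothelium of lymph nodes, had a very wide range between lines. Its control counts were 377, 137, 8.38, 59.9 and 78.9 and its IL-1β counts 666, 314, 72.5, 225 and 216. Each line was higher with IL-1β than its own control, by 0.82 to 2.97 on the log2 scale, while the groups overlapped because line 1 was high and line 3 low in both. The log2-fold change was 1.66 ± 0.89 (SE) with an adjusted p of 0.194, and with the block 1.66 ± 0.31 (SE) with an adjusted p of 0.00675, which made it DE. The block raised the DE enzyme genes from 4 to 5 of 40, where 16.2% of all genes were DE, and the genes past the adjusted p alone from 11 to 16 of 40, against 43.2%.

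CHST10, which sulfates the HNK-1 glucuronic acid of glycoproteins, had control counts of 2648, 2645, 4402, 3272 and 3765 and IL-1β counts of 2127, 2394, 2716, 2309 and 2486. It was lower in all lines with a slight overlap at the controls of lines 1 and 2, and the log2-fold change was −0.45 ± 0.15 (SE) (adjusted p = 0.0410). CHST1, the keratan sulfate galactose 6-O-sulfotransferase gene, had control counts of 2751, 761, 674, 721 and 1140.5 and IL-1β counts of 241, 616, 673, 874 and 501. Line 1 had the highest control and the lowest IL-1β value, lines 2 to 5 differed less and line 4 was higher, and the log2-fold change was −0.94 ± 0.43 (SE) (adjusted p = 0.132). CHST6, the corneal N-acetylglucosamine 6-O-sulfotransferase gene, had a log2-fold change of −0.24 (adjusted p = 0.557).

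Of the 5 heparan chain genes tested, EXT1 and EXTL2 were higher and EXT2 was lower by the adjusted p, none of them DE, and EXTL1 and EXTL3 did not pass. EXT1 and EXT2 encode the subunits that together form the heparan sulfate polymerase. EXT1 had control counts of 9169, 10730.4, 4962, 5622 and 7072 and IL-1β counts of 23332, 16538, 8007, 11648 and 15355. Each line was higher with IL-1β, with some overlap because line 3 was low in both conditions, and the log2-fold change was 0.97 ± 0.29 (SE) with an adjusted p of 0.0328. EXT2 had control counts of 6339, 5859, 6569, 5577 and 6106 and IL-1β counts of 4905, 5459.8, 5285, 4659 and 5276. All IL-1β libraries lay below all controls, by a small step of −0.25 ± 0.075 (SE) on the log2 scale (adjusted p = 0.0306). EXTL2, a glycosyltransferase gene of the same family whose enzyme can cap the linker, had control counts of 504, 460.05, 581, 493 and 470.4 and IL-1β counts of 1684, 966, 1123, 553 and 866. Its controls were alike and its IL-1β libraries ranged from about the control level in line 4 to the highest value in line 1, with a log2-fold change of 0.96 ± 0.25 (SE) (adjusted p = 0.0153).

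Leaving out 1 line carried EXT1 and EXTL2 over the fold-change limit, EXT1 at 1.04 without line 3 (adjusted p = 0.0209) and EXTL2 at 1.16 without line 4 (adjusted p = 0.00734). EXTL3, which starts the heparan chain, varied mostly between lines. Its log2-fold change was 0.053, and 95.3% of its variation went with the line. EXTL1, at counts of 1.23 to 24.9, had a log2-fold change of −0.44 ± 0.64 (SE) and an adjusted p of 0.648.

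None of the 4 tested genes for N-sulfation and epimerisation of heparan sulfate passed the adjusted p. NDST1, an N-deacetylase and N-sulfotransferase gene, had control counts of 8373, 5579.9, 6719.8, 8732 and 8631 and IL-1β counts of 6300.1, 5389, 5391, 12865 and 7032. It was lower in 4 lines and higher in line 4, with a log2-fold change of −0.10 ± 0.24 (SE) (adjusted p = 0.783). NDST2, of the same function, was at −0.00020 on the log2 scale with 96.6% of its variation between lines. NDST3, at low counts of 1.04 to 70.8, had a log2-fold change of −1.32 ± 0.67 (SE) (adjusted p = 0.173), and GLCE, the heparan glucuronyl C5-epimerase gene, had −0.10 ± 0.19 (SE) (adjusted p = 0.716).

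HS3ST1 had the lowest log2-fold change of all the enzyme genes tested. It encodes the 3-O-sulfotransferase best known for making the antithrombin-binding site of heparin and heparan sulfate. In control it had 222, 238, 1223, 398 and 425 normalised counts, and with IL-1β 188, 84.9, 21.8, 13.0 and 124. The groups did not overlap, but the size differed greatly between lines. Line 1 changed by −0.24 on the log2 scale, and line 3, the highest control, by −5.75. The log2-fold change was −2.81 ± 0.75 (SE) with an adjusted p of 0.0183. Without line 3 it was −2.08 (adjusted p = 0.0753), and without line 4 it was −2.31 (adjusted p = 0.0612), so that the call rested on both lines.

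The other 3 tested O-sulfotransferase genes were not DE. HS6ST1, a heparan 6-O-sulfotransferase gene, had control counts of 3228, 3427, 3133, 2849.7 and 3599.7 and IL-1β counts of 3482, 2275, 3944, 2590.3 and 2685. These overlapped, with a log2-fold change of −0.14 ± 0.15 (SE) (adjusted p = 0.512). HS2ST1, the 2-O-sulfotransferase gene, was higher in 4 of 5 lines at 0.32 (adjusted p = 0.190). HS3ST3B1, a second 3-O-sulfotransferase gene, had control counts of 1801, 3278, 319.9, 959.9 and 1267 and a log2-fold change of 0.40 ± 0.52 (SE). Its near-identical partner HS3ST3A1 had at most 19.4 counts in the first batch, and reads of the shared domain could have been divided between them, so both are uncertain.

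SULF1 and SULF2 encode sulfatases that work outside the cell and remove 6-O-sulfate from finished heparan sulfate. SULF1 had control counts of 17109, 12009.9, 9366, 6741 and 5655 and IL-1β counts of 19428, 10620.0, 9296, 9768 and 9878. Lines 1 and 2 were highest in both conditions, while lines 3 to 5 stood in the opposite order with IL-1β, 80.8% of its variation went with the line, and the log2-fold change was 0.27 ± 0.31 (SE) (adjusted p = 0.560). SULF2 had a log2-fold change of −0.21 ± 0.11 (SE) (adjusted p = 0.184) and was lower in 4 of 5 lines.

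The untested genes were near the detection limit. CHST13, a chondroitin 4-O-sulfotransferase gene, had 4.45, 2.68, 4.59, 3.77 and 6.67 normalised counts in control and 0, 0, 1.01, 0.97 and 1.03 with IL-1β. B3GAT2, a glucuronyltransferase of the HNK-1 sugar, had 1.76, 0, 3.69, 2.87 and 3.30 in control and was listed at 0 in all IL-1β libraries. In the second batch B3GAT2 passed the limit, with 35.4, 47.8 and 33.6 in the controls of lines 6 to 8. CHST8, HS3ST5, HS6ST2, HS6ST3 and NDST4 also lay below the limit in the first batch, and B3GAT1, CHST9, HS3ST2 and HS3ST6 were listed at 0. A listed 0 may be a failed estimate, since EIF2S2, a translation factor gene that every cell uses, was listed at 0 in 3 of the 10 first-batch libraries and 6 of the 9 in the second.

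Ratios of genes within a library do not depend on a scaling factor that all genes of the library share. In all, 4 were computed as the difference of log2(normalised count + 1), with exact two-sided permutation tests adjusted over the 4. CHST11 to CHST3, a 4-O- against a 6-O-sulfotransferase, had log2 ratios of 1.20, 1.93, 0.99, 0.40 and 0.012 in the controls of lines 1 to 5. With IL-1β they were 3.02, 3.20, 2.67, 2.84 and 2.28. All IL-1β libraries lay above all controls, with means of 2.80 ± 0.35 and 0.91 ± 0.74 (SD, n = 5), a difference of 1.90 and an exact permutation p of 0.00794 (adjusted 0.0159), the smallest that 5 against 5 libraries allow. CHSY1 to EXT1, a chondroitin against a heparan polymerase gene, had −0.18, −0.053, −0.023, 0.073 and −0.099 in control and −2.16, −1.46, −1.20, −0.73 and −1.81 with IL-1β. It was lower in all lines, with means of −1.47 ± 0.55 and −0.056 ± 0.092 (SD, n = 5), a difference of −1.42 and the same exact permutation p. Within lines an exact sign-flip test gave p = 0.0625 for both, the smallest that 5 lines allow, so the paired test could not pass 0.05. These ratios use the same counts as the tests of their genes and add no independent evidence. Partner genes did not all move alike, with EXT2 at −0.25, CHPF at 0.16 and CHSY3 at −0.49. CHSY1 to EXT1 therefore does not stand for the whole polymerases.

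SULF1 to SULF2 was higher with IL-1β in 5 of 5 lines, with means of 1.89 ± 0.30 and 1.41 ± 0.55 (SD, n = 5), but the groups overlapped (exact permutation p = 0.135, adjusted 0.18). XYLT1 to XYLT2 was lower in 4 of 5 lines, with means of 0.90 ± 0.45 and 1.19 ± 0.31 (SD, n = 5), and did not pass (exact permutation p = 0.278, adjusted 0.278).

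**Figure D3:**
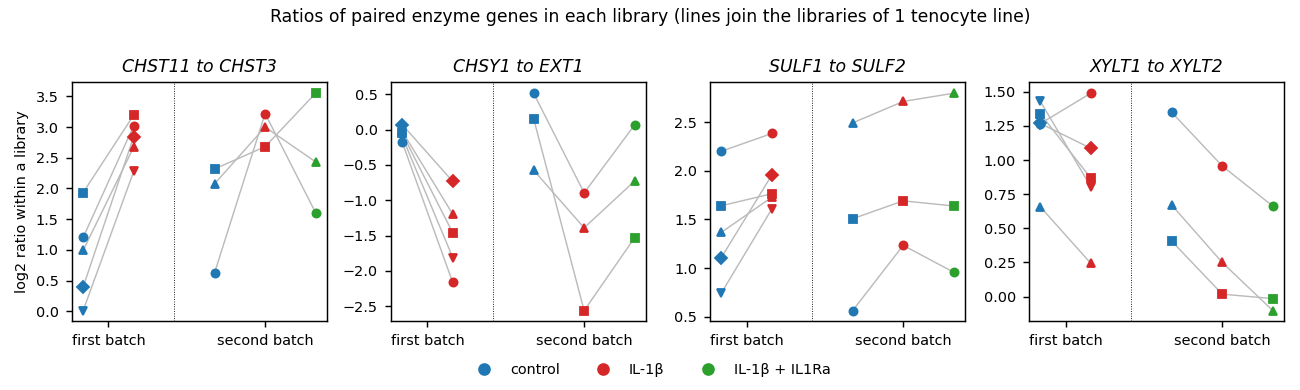
Log2 ratio of 2 enzyme genes within each library (vertical axis, a range of its own in each panel) in the first batch (lines 1 to 5, left of the dotted line) and the second (lines 6 to 8). Colours give the condition and grey lines join the libraries of a tenocyte line. CHST11 to CHST3 was above its control with IL-1β in all 5 first-batch lines and all 3 second-batch lines, and CHSY1 to EXT1 was below it.

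Much of the variation of these genes lay between lines. The highest control library was a median of 1.81 times the lowest over the 40 genes of the first batch and 1.79 times over the 41 of the second, with a lowest value under 3 counts set to 3. It was at least 5 times the lowest in 6 and 7 genes. HS3ST3B1 in the second batch had the widest range, from 61.5 in line 6 to 8438 in line 8, or 137-fold. CSGALNACT1 there ranged from 619 in line 6 to 11.02 in line 8, 56.2-fold, and CHST4 in the first batch from 8.38 in line 3 to 377 in line 1, or 45.0-fold. Between-line differences took a median of 49.1% of the variation of the enzyme genes in the first batch and the condition 27.5%, against 48.7% and 27.7% over all genes. In the second batch these were 51.2% and 18.9%, against 43.8% and 19.9%.

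Other genes of the pathway were taken from lists by function. Of 23 genes tested that supply precursors and sulfate donors, 1 was upregulated and 2 were downregulated (4.91% and 7.9% of all genes), and 6 and 4 passed the adjusted p alone (13.1% and 14.6% of all genes). PAPSS2, a synthase of the universal sulfate donor PAPS, had control counts of 6591, 5562, 5653, 5086 and 5051. With IL-1β it had 3156, 2705, 1992, 2946 and 3141. The groups were well separated, and the log2-fold change was −1.02 ± 0.13 (SE) (adjusted p = 5.41e-04). SLC35B4, a Golgi transporter of UDP-xylose and UDP-N-acetylglucosamine, rose from 1363, 1525, 1229.8, 1073 and 1096 to 2556, 2373, 3454, 2179.9 and 2916 in lines 1 to 5, a log2-fold change of 1.09 ± 0.14 (SE) (adjusted p = 5.25e-04). SLC26A1, a sulfate transporter gene, was lower at −2.23 ± 0.72 (SE) (adjusted p = 0.0404) and had at most 18.7 counts with IL-1β. PAPSS1, the second PAPS synthase gene, was also lower at −0.56 ± 0.069 (SE) (adjusted p = 3.51e-04), while SLC35B2, which carries PAPS into the Golgi, was higher at 0.45 ± 0.085 (SE) (adjusted p = 0.00336).

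Of 20 tested genes for glycosaminoglycan breakdown, 1 was upregulated and 0 were downregulated (4.91% and 7.9% of all genes), with 3 and 5 past the adjusted p alone (13.1% and 14.6% of all genes). HPSE2, a heparanase relative without known enzyme activity, had control counts of 72.1, 91.3, 723, 104 and 219.5 and IL-1β counts of 955, 691, 1539, 545 and 859.6. It was higher in every line, with line 3 high already in control, and the log2-fold change was 2.41 ± 0.57 (SE) (adjusted p = 0.0111). CEMIP, a hyaluronan-degrading protein gene, was at −1.17 ± 0.57 (SE) (adjusted p = 0.154), and GLB1, the lysosomal beta-galactosidase gene, was lower at −0.91 ± 0.18 (SE) (adjusted p = 0.00471).

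Of 13 tested genes for proteins that can carry heparan sulfate, 2 were upregulated and 6 downregulated (4.91% and 7.9% of all genes), with a median log2-fold change of −0.98. SDC4, the syndecan-4 gene, had control counts of 5809.6, 5569.5, 7305, 3890.3 and 4919 and IL-1β counts of 21984, 19398, 23020.4, 18570.2 and 25170.4. All IL-1β libraries lay far above the controls, at 2.00 ± 0.16 (SE) (adjusted p = 3.31e-05). SRGN, the serglycin gene, rose by 5.75 ± 0.68 (SE) (adjusted p = 2.78e-04). SDC3, the syndecan-3 gene, had control counts of 5682, 4057, 10627, 11113 and 6306 and IL-1β counts of 735, 972, 1095, 1141 and 389, a log2-fold change of −3.12 ± 0.35 (SE) (adjusted p = 2.27e-04). The glypican genes GPC1, GPC3 and GPC4 were lower at −1.45, −4.56 and −2.07, and so were COL18A1, the collagen XVIII gene, at −3.09 and HSPG2, the perlecan gene, at −1.01. GPC3 reached 10 counts in the 5 controls and in no IL-1β library (at most 7.05), so it could be tested only because it was higher in control. Carrier proteins and chain enzymes were not compared by a test.

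Tenocyte markers and the leukocyte marker CD68 also differed with the condition, while no endothelial or adipocyte marker passed the adjusted p without the block. The 10 tenocyte markers measured summed to 1093246 to 1847027 counts in first-batch controls and 428053 to 859285 with IL-1β. Among the 9 of them tested, 7 were downregulated (7.9% of all genes), while DCN had a higher mean, at 61194 in control and 101598 with IL-1β. COL1A1 and COL1A2, with control means of 634135 and 696773, made up most of the control sums. The defining marker TNMD was listed at 0 in all first-batch libraries. Leukocyte markers summed to 60.2 to 2076 in control and 311 to 3713 with IL-1β. Of these 10 genes 1 could be tested, the macrophage and lysosome marker CD68, at 2.64, while the pan-leukocyte gene PTPRC was 0 in all controls and at most 3.64 with IL-1β, and CD3E, CD79A and AIF1 were listed at 0. CD14, a monocyte and macrophage receptor gene, had a median of 0 in both groups. Its highest values, 1947 in control and 2811 with IL-1β, made up most of the highest leukocyte sums. The 6 endothelial markers summed to 22.8 to 50.2 and 17.5 to 91.0, and the 4 adipocyte markers to 79.8 to 2742 and 295 to 2310, with LEP listed at 0. The block, with which 16.2% of all genes were DE, added FMOD (−2.03) to the downregulated tenocyte markers (adjusted p = 0.0208). It also made PECAM1 (1.68, endothelial) and ADIPOQ (1.10, adipocyte) upregulated, with adjusted p of 0.0455 and 0.0345. VWF, the other endothelial marker tested, went the other way, with means of 25.1 in control and 8.96 with IL-1β. ADIPOQ was the only adipocyte marker tested, and PLIN1 had means of 5.57 in control and 3.73 with IL-1β. The part of these cell markers in the enzyme results was not tested.

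The second batch asked how the same genes stood in lines 6 to 8 with IL-1β and with IL-1β + IL1Ra. No enzyme gene passed the adjusted p in any of the 3 comparisons. In IL-1β against control, EXT1, EXTL2, DSE, B3GALT6 and CHST2 had higher means and CHST3 and HS3ST1 lower ones, as in the first batch. CHST10, CHST14 and EXT2 were at −0.17, −0.028 and −0.27 with IL-1β and at −0.16, −0.22 and −0.27 with IL-1β + IL1Ra. The comparisons share libraries and are not independent of each other.

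DE enzyme genes were 0 of 41 in IL-1β against control, where 0.341% of all 16705 genes were DE, 0 of 41 in IL-1β + IL1Ra against control, against 0.012%, and 0 of 41 in IL-1β + IL1Ra against IL-1β, against 0%. With the block they were also 0, against 5.18%, 0.251% and 0.00599% of all genes. At an unadjusted p under 0.05 by limma there were 4 of 41 in IL-1β against control (CHSY1, EXTL2, NDST3 and SULF2), against 11.4% of all genes, and 0 in the others, against 5.67% and 2.78%. NDST3 reached 10 counts in 3 controls, in no IL-1β library (at most 7.82) and in 1 IL-1β + IL1Ra library, so that its entry into the test rested on its control values. Without the block, the median standard error of an enzyme gene was 0.37 here and 0.20 in the first batch. Simulated data of this size had 100 genes changed by 1.5 and 100 by 2.5 on the log2 scale, among 16705. Of these, 11% and 47% were called, so changes of the size seen in the first batch could be missed. The rates hold for those settings alone. Tenocyte markers summed to 276760 to 912751 in control, 311645 to 473833 with IL-1β and 156381 to 830863 with IL-1β + IL1Ra. With the block, SCX, COMP and TNC were downregulated in IL-1β against control, 3 of 9 tested, where 5.18% of all genes were DE. DCN went the other way, with a mean of 42574 in control and 130467 with IL-1β. Leukocyte markers summed to 235 to 1273, 686 to 3058 and 740.1 to 2054 in the same order. CD68 had 66.6, 216 and 287 in control, 181, 1769 and 665 with IL-1β and 115, 1378 and 726 with IL-1β + IL1Ra, higher in every line in both treatments, at 1.89 for IL-1β (adjusted p = 0.586, and 0.0369 with the block). CD14, a monocyte and macrophage receptor gene, had 1195, 0 and 0 in control, 1158, 1262 and 0 with IL-1β and 1482, 645 and 0 with IL-1β + IL1Ra, and PTPRC was at most 6.46. Of the 3 leukocyte markers tested, 2 had higher means on the log2 scale with IL-1β and 1 had a lower mean. That gene was ITGAM, at 3.44 to 14.1 in control and 1.06 to 15.6 with IL-1β. The part of the cell markers in these results was not tested.

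CHST3 had 921, 524 and 408 normalised counts in the controls of lines 6 to 8, 486, 313 and 326 with IL-1β and 670.2, 276 and 354 with IL-1β + IL1Ra. Every line was below its control in both treatments, while the ranges of the groups overlapped. Log2-fold changes were −0.66 ± 0.41 (SE) for IL-1β and −0.53 ± 0.41 (SE) for IL-1β + IL1Ra against control, and 0.14 between the treatments (adjusted p = 0.626, 1.00 and 1.00).

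HS3ST1 had 729.6, 105 and 88.5 in control, 13.4, 111 and 182 with IL-1β and 205, 48.6 and 80.0 with IL-1β + IL1Ra. Line 6 alone was far lower with IL-1β, and lines 7 and 8 were above their controls. The log2-fold change of −1.52 ± 1.14 (SE) against control (adjusted p = 0.718) was 0.56 without line 6. With IL-1β + IL1Ra all lines were below control, at −1.02 ± 1.14 (SE), and IL-1β + IL1Ra was at 0.50 against IL-1β.

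CSGALNACT1 had 619, 12.2 and 11.02 in control, 332, 38.8 and 22.1 with IL-1β and 322, 12.8 and 23.1 with IL-1β + IL1Ra. Line 6 was far above the others in all conditions and lower with IL-1β, whereas lines 7 and 8 were higher with it. The log2-fold change against control was 0.55 ± 1.84 (SE) with IL-1β and 0.041 ± 1.84 (SE) with IL-1β + IL1Ra (adjusted p = 0.962 and 1.00). CHST4 had 18.2, 291 and 326 in control, 11.2, 399 and 323 with IL-1β and 8.93, 412 and 403 with IL-1β + IL1Ra. Line 6 was low throughout, the line took 98.5% of the variation, and the log2-fold changes against control were −0.070 ± 1.93 (SE) and −0.048 ± 1.93 (SE). Single lines changed by −0.65, 0.45 and −0.014 with IL-1β and by −0.95, 0.50 and 0.31 with IL-1β + IL1Ra. The standard errors come from the fit without the block, so they include the spread of levels between lines.

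CHST2 had 869, 1144 and 1167 in control, 3506, 1669 and 896 with IL-1β and 1526, 1550.2 and 1665 with IL-1β + IL1Ra. With IL-1β line 6 was highest and line 8 was below its control, whereas every IL-1β + IL1Ra library lay above every control. Log2-fold changes against control were 0.72 ± 0.43 (SE) and 0.59 ± 0.43 (SE) (adjusted p = 0.592 and 1.00). DSE had 5138, 5589 and 7229 in control, 7135, 9184 and 11785 with IL-1β and 5465, 7647 and 12390.5 with IL-1β + IL1Ra. All lines were above control in both treatments, at 0.63 ± 0.33 (SE) and 0.44 ± 0.33 (SE) (adjusted p = 0.520 and 1.00).

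EXT1 had 3249.9, 4568 and 3732 in control, 3686, 14413 and 7436 with IL-1β and 2377, 9599 and 6237 with IL-1β + IL1Ra. Each line was higher with IL-1β than in control and lower with IL-1β + IL1Ra than with IL-1β, and line 6 then lay below its control. The log2-fold changes were 0.94 ± 0.59 (SE) and 0.45 ± 0.59 (SE) against control and −0.49 between the treatments. EXTL2 had 263, 373 and 343 in control, 389, 942 and 528 with IL-1β and 378, 522 and 403 with IL-1β + IL1Ra. Both treatments lay above all controls, at 0.84 ± 0.33 (SE) and 0.41 ± 0.33 (SE), and every line was lower with IL-1β + IL1Ra than with IL-1β, at −0.43 on average (adjusted p = 1.00). B3GALT6 had 197, 386 and 444 in control, 383, 699.9 and 504 with IL-1β and 285, 492 and 424 with IL-1β + IL1Ra. It too was lower in every line with IL-1β + IL1Ra than with IL-1β, at −0.40 on average (adjusted p = 1.00), and line 8 was then below its control.

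**Figure D4:**
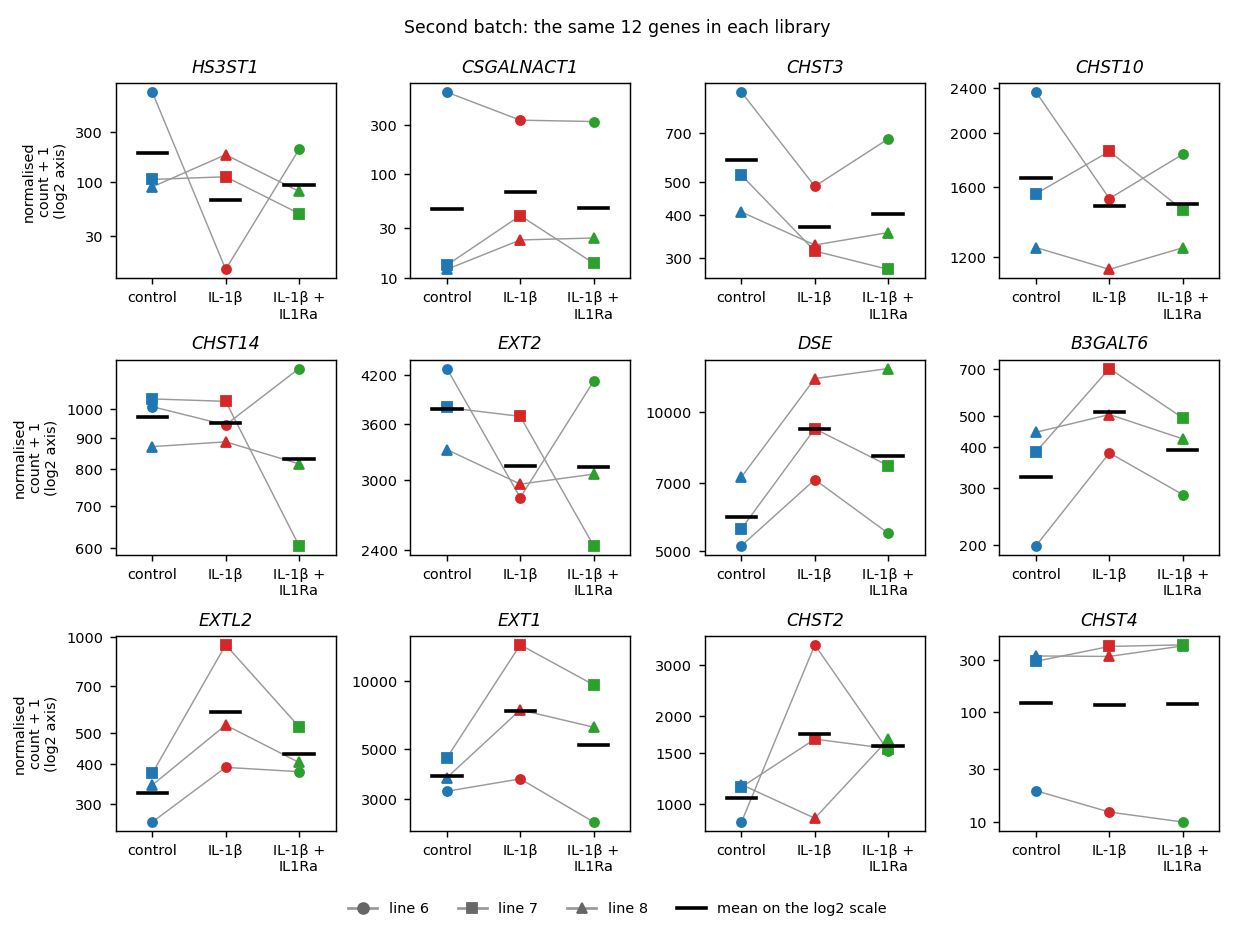
Normalised count + 1 (vertical axes, log2 scale, a range of its own in each panel) in the control, IL-1β and IL-1β + IL1Ra libraries of lines 6 to 8, for the genes with a call in the first batch. Grey lines join the libraries of a line and black bars are means on the log2 scale. EXT1, EXTL2 and B3GALT6 were highest with IL-1β in every line, and line 6 stood apart for HS3ST1, CSGALNACT1 and CHST4.

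Every line moved the same way for 14 of 41 genes in IL-1β against control (38% of all genes), 16 of 41 in IL-1β + IL1Ra against control (39.1%) and 12 of 41 between the treatments (32.4%). Groups that did not overlap were few. In IL-1β against control, CHST12 and EXTL2 were higher in all IL-1β libraries (2 of 41, against 8.82% of all genes), and GLCE, NDST3 and SULF2 were lower (3 of 41, against 7.61%). In IL-1β + IL1Ra against control, CHST2, CHST6 and EXTL2 were higher (3 of 41, against 5.79%) and 0 of 41 were lower (5.96% of all genes). Between the treatments, UST was lower with IL-1β + IL1Ra (1 of 41, against 3.35%) and 0 of 41 were higher (3.12%). These shares are near those of all genes. SULF2 had 2894, 2532 and 3136 in control, 1922, 2179 and 1575 with IL-1β and 1813, 2851 and 2457 with IL-1β + IL1Ra. Only the IL-1β libraries were all below control, and the log2-fold changes against control were −0.60 ± 0.21 (SE) and −0.29 ± 0.21 (SE) (unadjusted p = 0.0218 and 0.216 by limma, adjusted p = 0.321 and 1.00). CHSY1 had 4651, 5095 and 2507 in control, 1981, 2438 and 2836 with IL-1β and 2494, 3324 and 3769 with IL-1β + IL1Ra. Lines 6 and 7 were below control with IL-1β and line 8 above it, at −0.71 ± 0.30 (SE) (adjusted p = 0.430), and every line was higher with IL-1β + IL1Ra than with IL-1β, at 0.40.

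Ratios in the second batch could reach an exact permutation p of 0.1 at best with 3 against 3 libraries. CHST11 to CHST3 had means of 1.67 ± 0.92 in control, 2.97 ± 0.27 with IL-1β and 2.53 ± 0.98 with IL-1β + IL1Ra (SD, n = 3). It was above control in 3 of 3 lines in both treatments (exact permutation p = 0.1 and 0.4). CHSY1 to EXT1 had means of 0.034 ± 0.56 in control, −1.62 ± 0.86 with IL-1β and −0.73 ± 0.80 with IL-1β + IL1Ra (SD, n = 3). It was below control in 3 of 3 lines in both treatments (exact permutation p = 0.1 and 0.2) and higher with IL-1β + IL1Ra than with IL-1β in 3 of 3 lines, by 0.89 (exact permutation p = 0.3).

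Of the other pathway lists, 23 supply, 21 breakdown and 14 heparan sulfate carrier genes were tested in the second batch. SDC4 was the only one DE in any comparison without the block. For IL-1β against control, where 0.341% of all genes were DE, it was at 2.27 ± 0.29 (SE) (adjusted p = 0.0275). Its counts were 6318, 4198 and 4139 in control, 27666, 17275 and 25586 with IL-1β and 11978, 13032 and 8031 with IL-1β + IL1Ra. The last lay between the others in every line, at 1.17 against control and −1.10 against IL-1β (adjusted p = 0.566 and 1.00). With the block 5 more of these genes were DE in IL-1β against control, where 5.18% of all genes were DE. SRGN, HPSE2 and the sulfatase gene ARSG were higher at 4.17, 1.89 and 1.56 (adjusted p = 0.0409, 0.0286 and 0.0223). SDC3 and COL18A1 were lower at −2.22 and −2.68 (adjusted p = 0.0240 and 0.0143). PAPSS2 had 3164, 3032 and 1754 in control and 1322, 1631 and 2993 with IL-1β. It was lower in lines 6 and 7 and higher in line 8, at −0.46 ± 0.46 (SE) (adjusted p = 0.817).

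The batches share no library, so their IL-1β changes can be set side by side. Of 39 enzyme genes tested in both, 29 had the same sign (74.4%), against 79.6% of 14478 genes. Of the 11 with an adjusted p under 0.05 in the first batch, 10 had the same sign in the second (90.9%), against 97.4% of 4021 genes, and the exception was CSGALNACT1, at −1.36 and 0.55. Across genes, which are not independent replicates, Pearson's r between the batches was 0.69 over the 39 enzyme genes and 0.84 over all. EXT1 had nearly equal changes in both, at 0.97 and 0.94, and so had CHST11, at 0.63 and 0.63. CHST4 differed most in the upward direction, at 1.66 and −0.070, and whether such genes truly differed between batches was not tested, since the tables were normalised separately.

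**Figure D5:**
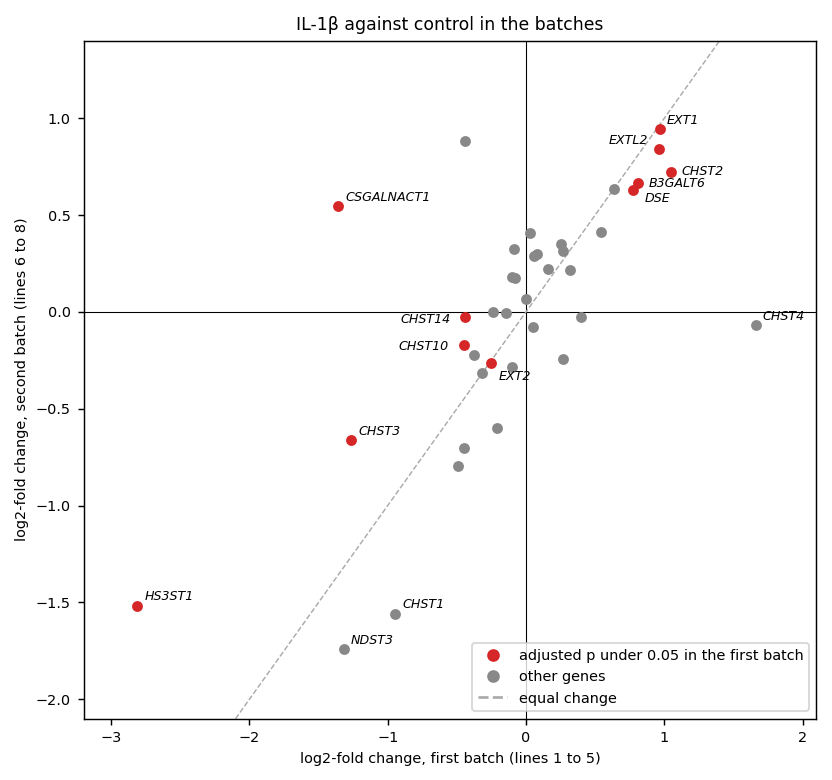
Log2-fold change between IL-1β and control in the first batch (horizontal axis, 5 lines) and the second batch (vertical axis, 3 lines) for the 39 enzyme genes tested in both. Red points had an adjusted p under 0.05 in the first batch, and the dashed line marks equal change. All red points but CSGALNACT1 lie in the quadrants of equal sign.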

How the data were processed

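The mRNA fraction of total RNA was sequenced for 19 libraries on 1 platform, and the paper names Oxford Genomics and Novagene as providers. The authors used Salmon to assign paired-end reads to the EquCab3.0 transcriptome, tximport to obtain gene counts, and DESeq2 to normalise each batch. The submitters' processing notes name DESeq2 1.36 and R 4.2.1. The deposited signal values are these normalised counts, in 1 table of 29196 gene names for each batch, and tests were made only within a table. Only 67.3% to 74.8% (first batch) and 59.8% to 75.2% (second) of a library's low values were whole multiples of a read within 0.05, and count models were therefore not used.

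The 14719 and 16705 genes that reached 10 normalised counts in 5 (first batch) or 3 (second) libraries entered limma 3.58.1 (R 4.3.3) on log2(normalised count + 1) with a trended prior. The p-values were Benjamini-Hochberg adjusted over all genes tested in each comparison. The second batch was fitted over all 9 libraries. Exact permutation tests of the ratios used scipy 1.17.1. Variation was divided between line, condition and remainder as sums of squares on the log2 scale.

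Groups came from the treatment and batch labels, and lines from the sample titles. Libraries of 1 line pair across conditions: deviations from the condition means correlated within lines at 0.35 to 0.58 (5 pairs, first batch) and 0.54 to 0.79 (9 pairs, second), against −0.36 to 0.29 (20 pairs) and −0.62 to 0.25 (18 pairs) between lines. The fit without the line as a block is the one reported, as the study describes none, and the blocked value is given where it changes a call.

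The fit was tested on simulated data: of genes changed by 1.5 and 2.5 on the log2 scale, 61% and 80% were called at the size of the first batch and 11% and 47% at that of the second (75%, 87%, 27% and 65% with the block). Each simulation changed 100 genes by each size, among 14719 or 16705. So few changed genes make the adjusted p stricter, and the simulated line spread still held part of the residual spread. Both can lower the share called, so the rates are a rough guide. Every enzyme gene is named in its role group, with values in each library for those DE with or without the block and for the gene with the highest control level in its group. From the other lists the DE genes are named or, where fewer than 3, the 3 with the largest change. Values of the 7 genes that passed the adjusted p alone, PAPSS1, SLC35B2, CD14, CHST1 and CHST7 were added after their values were seen. So were those of DCN, COL1A1, COL1A2, VWF, PLIN1, the list genes DE only with the block and the second-batch genes without overlap. The enzymes, roles and lists were chosen with earlier results of these data known. All 52 names matched a RefSeq gene table of another horse assembly, so no coordinates are given. Alternatives were other pseudocounts (0.5 and 5), filters (none and 50.0), scalings, a prior without trend, 2 conditions alone, the block, no fold-change limit and each line left out.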

Additional observations from a re-analysis of the deposited data

Results flagged for a closer look

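Groups of 5 first-batch libraries were searched for 1 library far from the rest by Dixon's criterion, and 6 of 80 groups of enzyme genes had one, where chance gives about 1 in 20. In control, CHST6 was high in line 3 at 792 normalised counts, and GLCE was high in line 1 at 1447. With IL-1β, CHST15 was high in line 3 at 1639.9 and SULF1 was high in line 1 at 19428. Low values with IL-1β were found for EXTL1 in line 1 at 1.23 and for NDST3 in line 3 at 1.04, both genes with few counts. Groups of 3 libraries were not searched, and none of these 6 genes was DE.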

How the results depend on the processing

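Upregulated enzyme genes in the first batch numbered 1, and 1 without any single line. That gene was CHST2, but EXT1 took its place without line 3 and EXTL2 without line 4. Upregulated genes numbered 2 with the tenocyte line as a replicate block (CHST4 added) and 5 without the fold-change limit. Downregulated ones numbered 3, and 1 to 3 without a line, 5 with no filter on low values (B3GAT2 and CHST13 added, both with at most 6.67 counts) and 6 without the fold-change limit. Other pseudocounts, filters, scalings and the prior without trend left these counts at 1 and 3. In the second batch the counts were 0 under every alternative run, the block included. Of the enzyme genes the block changed no other call of DE than that of CHST4. Within lines, the ratio differences of 1.90 (CHST11 to CHST3) and −1.42 (CHSY1 to EXT1) had an exact sign-flip p of 0.0625, and without a line they ranged from 1.76 to 2.05 and from −1.57 to −1.28.

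Signs turned among changes that had not passed. Leaving out 1 line turned 7 of 40 enzyme genes in the first batch, all with a log2-fold change of −0.10 to 0.16, and in the second 12 of 41 (IL-1β), 13 of 41 (IL-1β + IL1Ra) and 20 of 41 (between the treatments). The values that follow are from the second batch. CHST4 in IL-1β + IL1Ra against control was 0.021 with a pseudocount of 5, and CSGALNACT1 was −0.025 there and −0.032 with libraries scaled to equal totals. Without a line, IL-1β against control ranged from −0.33 to 0.22 for CHST4 and from −2.79 to 0.56 for HS3ST1. For IL-1β + IL1Ra against control the ranges were −0.32 to 0.40 for CHST4 and −0.44 to 0.53 for CSGALNACT1. Against IL-1β they were −0.65 to 0.39 for CHST2, −0.029 to 0.29 for CHST3, −0.13 to 0.18 for CHST4, −0.79 to 0.0095 for CSGALNACT1 and −1.17 to 1.33 for HS3ST1. Scaling to equal totals shifted the median of all genes in the second batch to −0.19 (IL-1β) and −0.071 (IL-1β + IL1Ra) against control and 0.11 between the treatments. The cause of these turns was not tested. The second batch has 3 lines. Without the block, its widest standard errors were those of HS3ST3B1 (2.03), CHST4 (1.93) and CSGALNACT1 (1.84). These genes differed greatly between lines, and that spread is part of the errors.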
